A study of Bos taurus with 6 samples.

Results

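The genes described here are the 8 core genes of the Hedgehog pathway DHH, PTCH1, SMO, SUFU, GLI1, GLI2, GLI3 and HHIP, which were taken by their symbols from the deposited table of 47249 genes. All 8 were found, each in 1 row. The libraries were made from testes of untreated Wandong cattle, 3 immature calves aged 3 months and 3 andrologically mature bulls aged 3 years, with 1 library of ribosomal RNA-depleted total RNA per animal. The membranes around the testis had been removed before slices were cut from its middle. Levels are FPKM values, the fragments counted on a gene per kilobase of its transcript, relative to the size of the library, so that genes of different length can be set beside each other. The table gives no read counts, the depth behind a single value is therefore unknown, and the spread between animals serves as the error.

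Hedgehog proteins are secreted signals. Their receptor PTCH1 keeps the membrane protein SMO inactive until a ligand binds, and active SMO releases the GLI transcription factors from their inhibitor SUFU at the primary cilium. PTCH1, GLI1 and HHIP are themselves classical target genes, of which PTCH1 and HHIP also bind the ligand and limit the signal. In the testis, Sertoli cells are the known source of Desert hedgehog (DHH), and cells outside the tubules, among them the precursors of Leydig cells and the peritubular cells, are known to respond to it.

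The library labelled calf 3 stood apart, with values that go against its label, and results that rest on it are given with and without it. The 7 Leydig cell markers (INSL3, STAR, CYP11A1, CYP17A1, HSD3B1, LHCGR and NR5A1) had a summed FPKM of only 0.502 there, whereas the sum was 1431 in calf 1, 1169 in calf 2 and 1473 to 2747 in the bulls, and CYP11A1, CYP17A1 and NR5A1 were listed at 0. Of the 8 Sertoli cell markers, WT1, GATA4 and FSHR were listed at 0 in calf 3. The 4 oligodendrocyte markers summed to 12032 in calf 3 and to at most 9.90 in the other 5 libraries, and the 4 astrocyte markers to 1644 and at most 6.75. The FPKM values of all genes summed to between 587066, in calf 3, and 1098715, in calf 2.

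The comparison of bulls with calves asked how the pathway differed between the immature and the mature testis. limma was run on log2(FPKM + 1) over the genes that reached an FPKM of 1 in 3 or more libraries. A gene was called where its adjusted p was below 0.05 and its log2 fold difference, taken as bull minus calf, was 1 or more in size. Of the 8 genes, 6 passed this filter and GLI1 and GLI2 did not. PTCH1, SMO, GLI3 and HHIP were called lower in bulls and none was called higher, and the same holds for an unadjusted p below 0.05 (4 lower, 0 higher). HHIP reached an FPKM of 1 only in the calves, so that the filter fixed its direction, and of the other 5 genes 3 were called lower. Over all 18115 genes tested, 9.61% were called lower and 35.7% higher in bulls. Without calf 3, DHH was called lower as well, which gave 5 of 6 genes lower and 0 higher, against 13.6% and 37.9% of all genes, or 4 of 5 apart from HHIP. The median log2 fold difference over these 5 was −1.01, and −1.84 without calf 3, and over all genes tested it was 0.43 in both fits. After quantile normalization, which moved the median of all genes to −0.26 and the calls to 3827 higher and 4538 lower, 5 of the 6 genes were called lower. Leaving out bull 1 or bull 3 left only PTCH1 called, leaving out calf 2 or bull 2 left 2 genes, and leaving out calf 1 left 3.

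In 5 of the 8 genes (PTCH1, SMO, GLI2, GLI3 and HHIP), every bull lay below every calf, and 4 of these were among the 6 tested (HHIP by the filter alone), where 21.3% of all genes tested showed this order and 46.1% the opposite one, which none of the 8 showed. Against calf 1 and calf 2 alone, every bull was lower in 7 of the 8 genes, SUFU being the exception, and in 5 of the 6 tested, against 30.9% of all genes tested (53.5% showed the opposite order). Calf 3 was the lowest of the 6 libraries for 2 of the 8 genes (DHH and GLI1, which was not tested) and the highest for 2 (HHIP and SUFU). Over all genes tested it was the lowest in 35.3% and the highest in 21.9%. Markers of meiotic and later germ cells moved with the groups: the 5 spermatocyte markers, the 5 round spermatid markers and the 4 markers of elongating spermatids were all called higher in bulls, although 9 of these 14 genes passed the filter only through the bulls and could be called in no other direction, and the last of these lists summed to at most 0.792 in a calf and to 13100 to 14967 in the bulls. PDGFRA, known from interstitial mesenchyme, was at 54.7, 55.8 and 54.7 in calves 1, 2 and 3 and at 12.5 to 19.0 in the bulls (log2 fold difference −1.69, adjusted p = 0.000656, limma; −1.69 without calf 3). NR2F2, a factor of the same cells, was at 14.6, 11.5 and 11 in the calves and at 2.18 to 3.04 in the bulls (−1.94, adjusted p = 0.000377; −2.02 without calf 3). TCF21, another such gene, was listed at 0 in calf 3 and had a log2 fold difference of −2.03 (adjusted p = 0.258) with it and of −3.70 (adjusted p = 2.7e-05, called lower) without it. These genes were named after their values were seen. Calf 3 carried the high oligodendrocyte and astrocyte sums given above. Which cells gave its PDGFRA and NR2F2 values was not tested, so their closeness to calf 1 and calf 2 is not a repeat of a mesenchyme level. Of the 5 peritubular myoid cell markers, ACTA2 and MYH11 were called higher in both fits and DES lower without calf 3. In whole tissue, fewer cells of a type and less RNA per cell cannot be told apart, and the part of these cell types in the lower values was not tested.

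**Figure D1:**
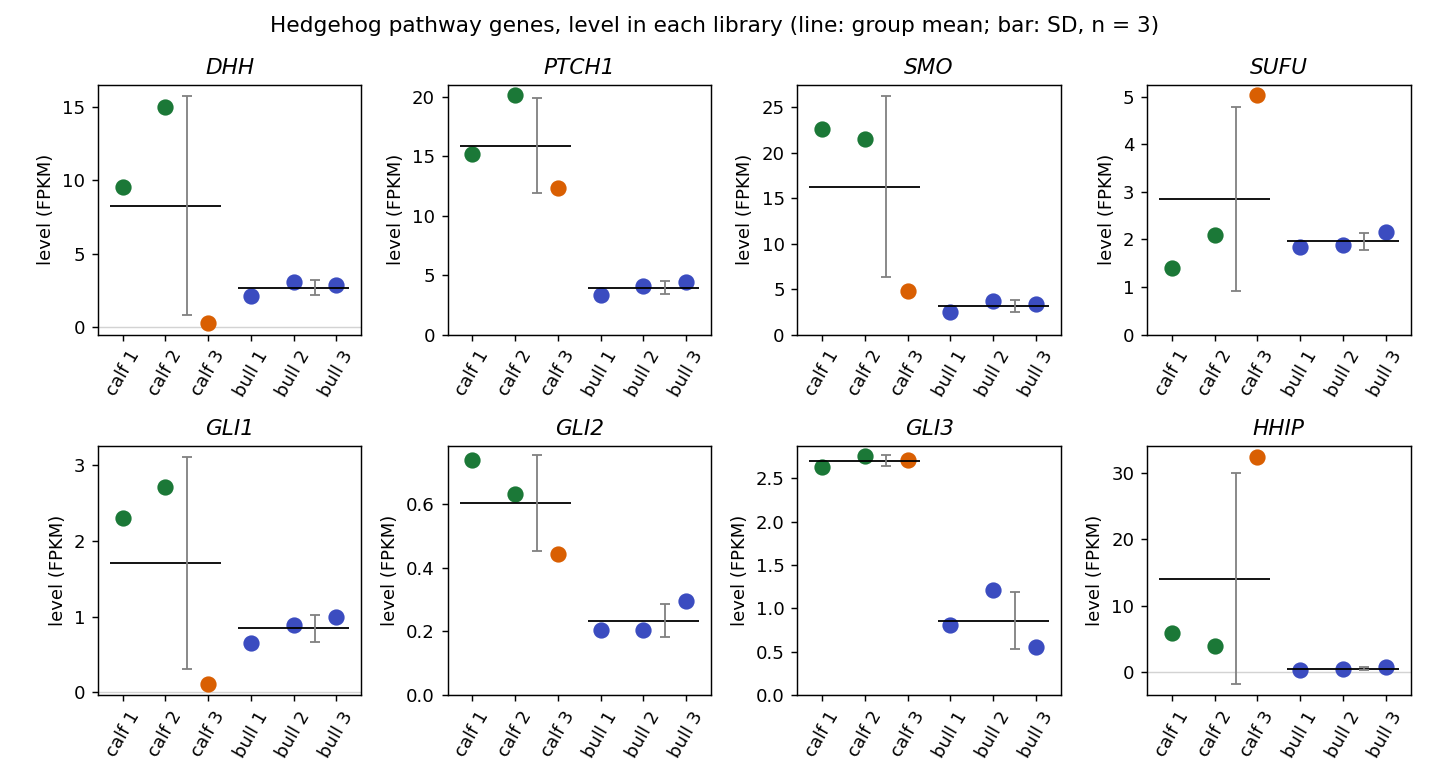
Level of each of the 8 genes in each library, in FPKM on a linear axis of its own per panel (green: calf 1 and calf 2; orange: calf 3; blue: bulls; black line: group mean; grey bar: SD, n = 3). In PTCH1, SMO, GLI2, GLI3 and HHIP the bulls lie below all 3 calves, whereas calf 3 is the lowest library for DHH and GLI1 and the highest for HHIP and SUFU.

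DHH (ENSBTAG00000000124, chromosome 5, 30728408 to 30733366), the ligand, had an FPKM of 9.54 in calf 1, 15.0 in calf 2 and 0.239 in calf 3, and of 2.09, 3.06 and 2.84 in bulls 1, 2 and 3. Calf 1 and calf 2 lay above all bulls and calf 3 below all of them, so the groups overlapped. With all libraries, the log2 fold difference of −0.71 (s.e., the standard error, 0.95; 95% interval −3.05 to 1.63, adjusted p = 0.558, limma) did not exceed the spread of the calves, and it was 0.01 without calf 2. With calf 3 left out, the bulls were called lower for DHH, with a log2 fold difference of −1.84 (s.e. 0.23, adjusted p = 0.000548, limma), and the mean FPKM of calf 1 and calf 2 was 4.62 times that of the bulls. With array weights, DHH was also called lower (−1.74, adjusted p = 0.00191, limma). These weights are estimated from the spread of each library around the same fit, so this is not a separate line of evidence. The other ligands of the family hardly registered: SHH reached at most 0.921, in calf 3, and 0.0450 elsewhere, and IHH reached at most 0.0675 in any library.

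Since DHH is known as a Sertoli cell product, its level was set beside 8 Sertoli cell markers (SOX9, WT1, GATA4, FSHR, CLDN11, DMRT1, AMH and INHA). With all libraries none of the 8 was called in limma (1 was lower at an unadjusted p below 0.05), and without calf 3, 6 were called lower and 1 higher in bulls. The difference between DHH and the mean of the markers, both on the log2(FPKM + 1) scale, was −2.11, −2.03 and −1.44 in calves 1, 2 and 3 and −2.55, −2.22 and −2.30 in the bulls. Every bull was below every calf, and the calves had a mean of −1.86 ± 0.36 (SD, n = 3) and the bulls one of −2.35 ± 0.17 (SD, n = 3) (p = 0.1, two-sided exact permutation test, the lowest p that 20 labelings can give). Without calf 3 the means differed by −0.29 (exact permutation test, two-sided, p = 0.2, where 10 labelings allow 0.1 at best). In calf 3 the mean of the markers rests on few of them, since 3 were at 0 there and CLDN11, which myelin-forming cells also express, was at 429.

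**Figure D2:**
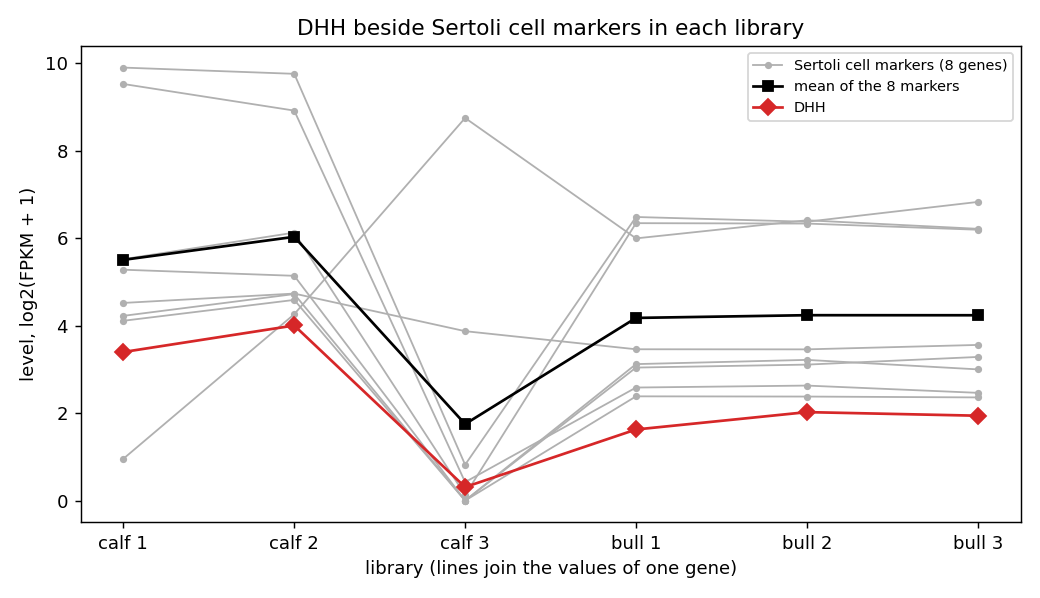
Level of DHH (red), of the 8 Sertoli cell markers (grey) and of their mean (black) in each library, as log2(FPKM + 1). From calf 1 and calf 2 to the bulls, DHH and the mean of the markers both lie lower, and in calf 3 all but SOX9 and CLDN11 drop to near 0.

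PTCH1 (ENSBTAG00000009903, chromosome 8, 82098120 to 82170138), the receptor of the ligand, had an FPKM of 15.2, 20.1 and 12.3 in calves 1, 2 and 3 and of 3.31, 4.07 and 4.38 in the bulls. The lowest calf was well above the highest bull, and calf 3 was close to the other calves. Since the markers of calf 3 go against its label, this closeness is not a repeat of the calf level. PTCH1 fell: the calves averaged 15.9 ± 3.96 (SD, n = 3) and the bulls 3.92 ± 0.553 (SD, n = 3), a log2 fold difference of −1.76 (s.e. 0.23, adjusted p = 0.000983, limma). The call held under each of the 16 alternatives computed, with log2 fold differences between −2.41 and −1.58, and without calf 3 it was −1.92 (adjusted p = 0.000148).

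SMO (ENSBTAG00000013287, chromosome 4, 93108630 to 93132945), the membrane protein that PTCH1 restrains, reached an FPKM of 22.6 in calf 1 and of 21.4 in calf 2, where it was the most abundant of the 8 genes. Its value was 4.76 in calf 3, while bulls 1, 2 and 3 had 2.42, 3.67 and 3.34. The groups did not overlap, but calf 3 was nearer to the bulls than to the other calves. With all libraries the log2 fold difference was −1.82 (s.e. 0.58, adjusted p = 0.0369, limma). The call was lost with no filter on low values (adjusted p = 0.0569) and without calf 1 (0.102), calf 2 (0.105), bull 1 (0.119), bull 2 (0.0888) or bull 3 (0.0982). It was kept without calf 3, at −2.49 (s.e. 0.17, adjusted p = 4.48e-05). On the FPKM scale, calf 1 and calf 2 had on average 7.01 times the level of the bulls.

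SUFU (ENSBTAG00000021068, chromosome 26, 23106477 to 23250604), is the inhibitor of the GLI proteins. Its FPKM was 1.41, 2.09 and 5.05 in calves 1, 2 and 3 and 1.84, 1.88 and 2.16 in the bulls, and the groups overlapped with and without calf 3. The log2 fold difference was −0.27 (95% interval −1.13 to 0.60, adjusted p = 0.550, limma) with all libraries and 0.12 (95% interval −0.29 to 0.52, adjusted p = 0.547) without calf 3. Of the 16 alternatives, only quantile normalization gave a call, a lower level in bulls (−1.12, adjusted p = 0.0269).

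**Figure D3:**
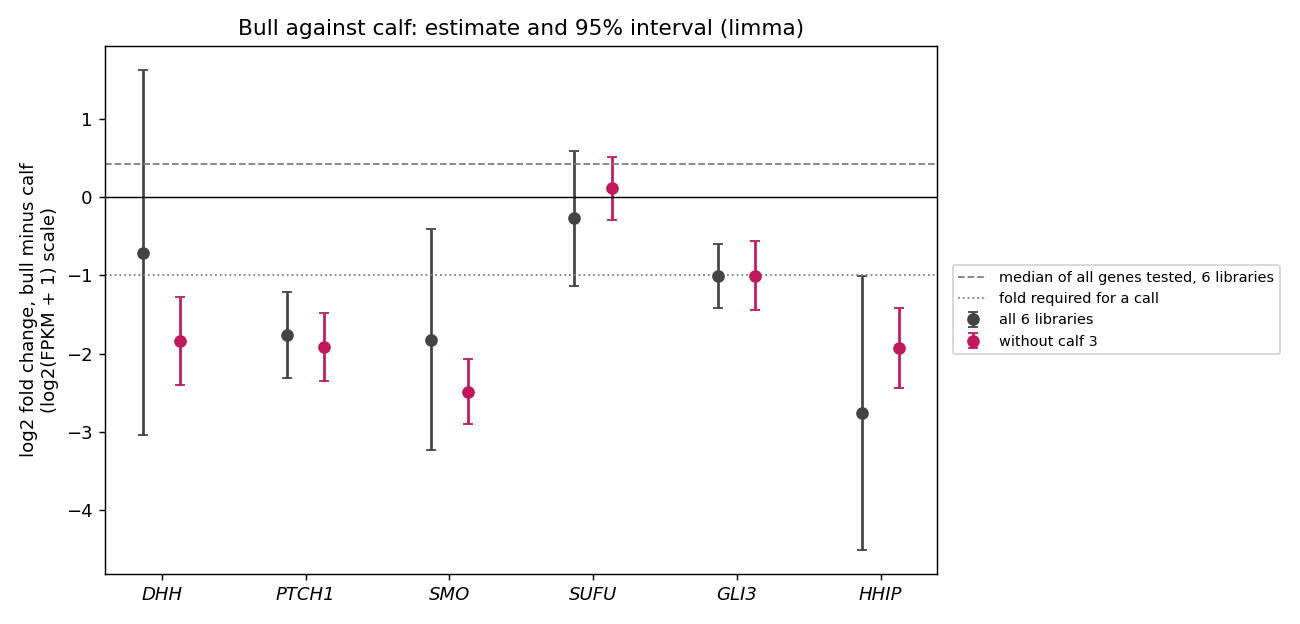
Log2 fold difference (bull minus calf, log2(FPKM + 1) scale) of the 6 genes tested, with 95% intervals from limma, for all 6 libraries (grey) and without calf 3 (magenta). The interval of DHH runs from −3.05 to 1.63 with all libraries and from −2.40 to −1.27 without calf 3, and SUFU includes 0 in both.

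Of the GLI transcription factors, GLI3 (ENSBTAG00000010671, chromosome 4, 78746968 to 79063150), which acts largely as a repressor, was the only one that passed the filter. Its FPKM was 2.63, 2.75 and 2.71 in calves 1, 2 and 3 and 0.806, 1.21 and 0.561 in the bulls. The gene values of the 3 calves lay within a narrow band, and all bulls lay lower. The entries behind the value of calf 3 differed, however. GLI3-201 was at 0.738 there, against 1.43 in calf 1 and 1.13 in calf 2. GLI3-202 was at 0.746 in calf 3 and at most 0.00619 in any other library. With markers that go against its label, calf 3 does not serve as a repeat of the calf level. The log2 fold difference of −1.01 (s.e. 0.17, adjusted p = 0.00302, limma) lay at the size required for a call. It was just under that size without calf 2 (adjusted p = 0.0130), without bull 1 (−0.99) or bull 3 (−0.89), with array weights (−0.98) and after rescaling all libraries to the same total (−0.96), while the adjusted p was at most 0.0260 in all 16 alternatives. Without calf 3 GLI3 was still called (adjusted p = 0.00272).

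GLI1 (ENSBTAG00000006631, chromosome 5, 55992686 to 56003064), an activator and a target gene of the pathway, reached 2.31 in calf 1, 2.71 in calf 2 and 0.109 in calf 3, with 0.650, 0.893 and 0.988 in the bulls. As in DHH, calf 1 and calf 2 lay above the bulls and calf 3 below them. GLI2 (ENSBTAG00000011682, chromosome 2, 72712261 to 72753189), the main activator in many tissues, had an FPKM of 0.738, 0.630 and 0.441 in calves 1, 2 and 3 and of 0.204, 0.203 and 0.294 in the bulls, so all calves were higher although no library reached 1. When all genes above 0 in any library were tested, the log2 fold differences of GLI1 and GLI2 were −0.38 (adjusted p = 0.560, limma) and −0.37 (adjusted p = 0.0650). Without calf 3 as well, an alternative added after the data had been seen, they were −0.93 (adjusted p = 0.00991) and −0.45 (adjusted p = 0.0189), under the size required for a call. In these fits, 3.54% and 6.1% of all genes were called lower in bulls. Adding 1 to each FPKM draws such low values together: on the FPKM scale, calf 1 and calf 2 had 2.97 times the GLI1 level and 2.93 times the GLI2 level of the bulls, close to the 3.14 of GLI3.

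HHIP (ENSBTAG00000016071, chromosome 17, 13442201 to 13558329), the decoy that binds the ligand at the cell surface, reached an FPKM of 5.96 in calf 1, 4.0 in calf 2 and 32.3 in calf 3, with 0.374, 0.479 and 0.836 in the bulls. All calves lay above all bulls, and calf 3 was 6.49 times the mean of the other calves. HHIP passed the filter only through the 3 calves and so had to differ in this direction. Its log2 fold difference was −2.76 (s.e. 0.71, adjusted p = 0.0180, limma) with all libraries and −1.93 (s.e. 0.21, adjusted p = 0.000303) without calf 3. The call was lost without bull 1 (adjusted p = 0.0678), bull 2 (0.0637) or bull 3 (0.0539). On the FPKM scale, calf 1 and calf 2 had 8.84 times the level of the bulls, the largest such ratio among the 8 genes. With all libraries, 0.464% of the genes tested had a lower log2 fold difference, and 3.48% without calf 3. The high value in calf 3 stood beside the oligodendrocyte and astrocyte sums given above, and the part of such cells in it was not tested.

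The order of the levels was the same in calf 1 and calf 2: SMO, PTCH1, DHH, HHIP, GLI3, GLI1, SUFU and GLI2, from highest to lowest. The values of neighbours in this order did not overlap between the 2 calves, except for GLI3 and GLI1. In bull 1 and bull 2 the order was PTCH1, SMO, DHH, SUFU, GLI3, GLI1, HHIP and GLI2. The ranges over the bulls overlapped for PTCH1 and SMO, for SMO and DHH, for DHH and SUFU, for GLI3 and GLI1 and for GLI1 and HHIP. Within each of the 3 bulls, however, PTCH1 was above SMO, SMO above DHH and DHH above SUFU, and GLI1 above HHIP, whereas GLI3 was above GLI1 in bulls 1 and 2 and below it in bull 3. In calf 3 the order was HHIP, PTCH1, SUFU, SMO, GLI3, GLI2, DHH and GLI1.

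Ratios within a library do not depend on its scaling. The FPKM of PTCH1 divided by that of DHH was 1.59 and 1.34 in calf 1 and calf 2 and 1.59, 1.33 and 1.54 in the bulls, so receptor and ligand kept nearly 1 proportion in these 5 libraries, while it was 51.5 in calf 3. PTCH1 divided by SMO was 0.673 and 0.939 in calf 1 and calf 2, 2.58 in calf 3, and 1.37, 1.11 and 1.31 in the bulls, so the bulls lay above both calf 1 and calf 2. GLI1 divided by PTCH1 was 0.152 and 0.135 in calf 1 and calf 2, 0.00884 in calf 3 and 0.214 ± 0.0153 (SD, n = 3) in bulls. SUFU divided by SMO was 0.0622 and 0.0977 in calf 1 and calf 2, 1.06 in calf 3 and 0.639 ± 0.123 (SD, n = 3) in bulls, so the inhibitor lay nearer to the level of SMO in the bulls than in calf 1 and calf 2.

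The table of transcripts lists 22 entries for the 8 genes, of which 6 passed the filter. With all libraries 3 were called lower in bulls (SMO-201, PTCH1-201 and HHIP-201) and none higher, where 9.37% of all transcripts tested were called lower and 34.8% higher. HHIP-201 and HHIP-OT1 passed the filter only through the calves, which fixed their direction, and of the other 4 entries 2 were called lower. Without calf 3 all 6 were called lower, 4 of them apart from these, where 13.1% of all transcripts were, and 36.1% higher. Without bull 1, bull 2 or bull 3, only 1 of the 6 was called (PTCH1-201). PTCH1-201 carried most of the PTCH1 level, 72.6% to 99.1% of it over the libraries, and had a log2 fold difference of −1.74 (adjusted p = 0.000739, limma), and −1.87 without calf 3. The second form, PTCH1-202, was at 2.28, 2.85 and 0.985 in calves 1, 2 and 3, listed at 0 in bull 1, and at 0.659 and 1.18 in bull 2 and bull 3. It had a log2 fold difference of −0.93 (adjusted p = 0.0828), and −1.21 (adjusted p = 0.0269) without calf 3.

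The gene value of HHIP is the sum of HHIP-201 and of an assembled transcript named HHIP-OT1, which held 37.4% to 54.1% of it. HHIP-201 alone was at 3.45, 2.50 and 14.8 in calves 1, 2 and 3 and at 0.193, 0.247 and 0.463 in the bulls (log2 fold difference −2.28, adjusted p = 0.0178, limma; −1.61, adjusted p = 0.000796 without calf 3). HHIP-OT1 was at 2.51 in calf 1, 1.5 in calf 2 and 17.5 in calf 3 and at 0.181, 0.232 and 0.373 in the bulls (−2.11, adjusted p = 0.0549, and −1.23, adjusted p = 0.00257 without calf 3). Both forms were therefore highest in calf 3 and lowest in bulls, a direction that the filter had fixed for them as for the gene. For DHH, the coding transcript DHH-201 took 85.2% to 100% of the level and DHH-AS1, named as an antisense transcript, the rest, with an FPKM of at most 0.630. DHH-201 had a log2 fold difference of −0.80 (adjusted p = 0.511), and −1.91 (adjusted p = 0.00119) without calf 3.

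The level of GLI3 was spread over 6 entries and none passed the filter. GLI3-201 was at 1.43, 1.13 and 0.738 in calves 1, 2 and 3 and at 0.296, 0.337 and 0.243 in the bulls, so all bulls lay below all calves in this entry too. GLI3-202 was at 0.746 in calf 3, where it held 27.5% of the gene's level, and at most 0.00619 in the other 5 libraries. For SUFU, SUFU-202 held 29.3% to 36.8% of the level in every library.

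Other genes of the pathway were taken from a list of 80 genes arranged by role, of which 68 passed the filter. Of these, 17 were called higher and 11 lower in bulls (25% and 16.2%, against 35.7% and 9.61% of all genes tested), and 40 were not called. Of the 68, 2 passed the filter only through the calves and 2 only through the bulls, which fixed their direction. Among the other 64, 15 were called higher and 10 lower. The median log2 fold difference was −0.0047 over the 68 and over the 64, against 0.43 over all genes. Without calf 3, 20 of the 68 were called higher and 15 lower, 16 and 9 of them in both fits. Among the 64, 18 were called higher and 14 lower without it, against 37.9% and 13.6% of all genes tested. After quantile normalization, 10 of the 68 were called higher and 24 lower, so the balance of the list depends on the scaling.

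**Figure D4:**
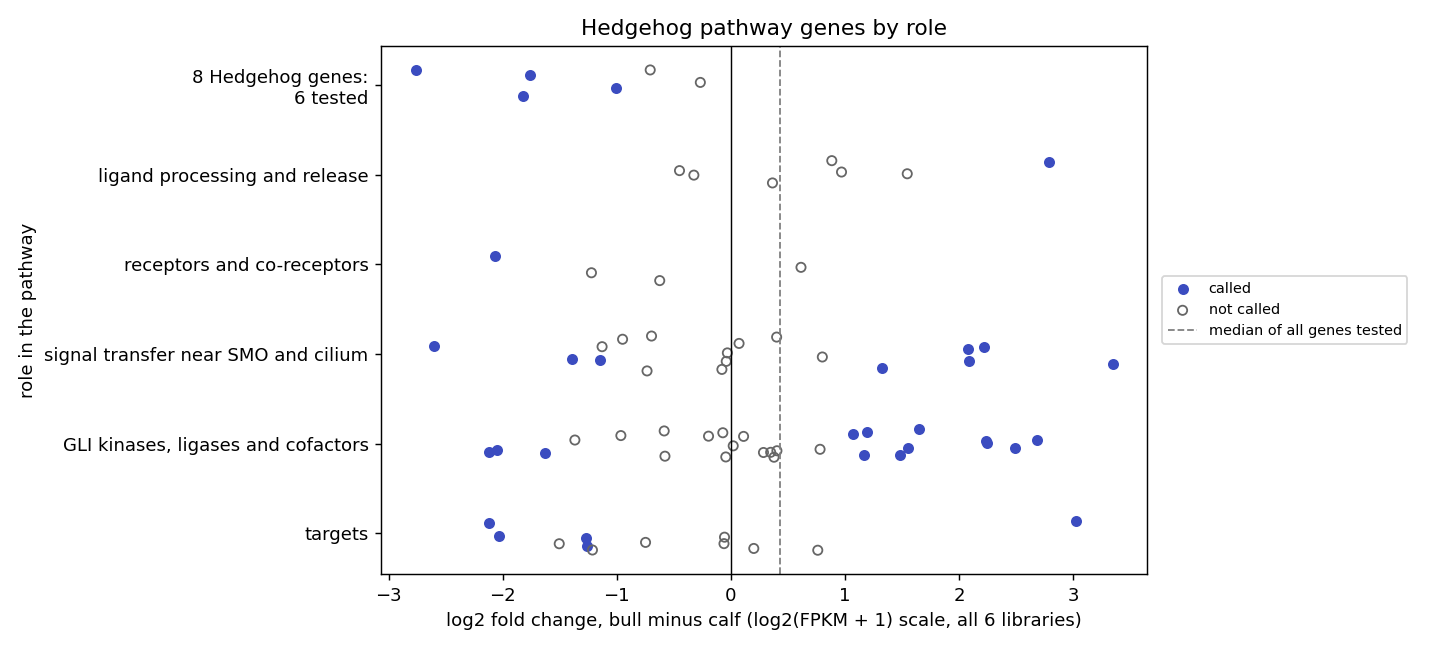
Log2 fold difference (bull minus calf, all 6 libraries) of the 6 core genes tested and of 68 other pathway genes by role, with genes called shown filled and the others open. The dashed line marks the median of all genes tested, 0.43. The core genes lie to the left of it. The kinases, ligases and cofactors of the GLI proteins spread to both sides, with 10 called higher and 3 lower. Their shares lie near the 35.7% and 9.61% of all genes tested.

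Among receptors and co-receptors, GAS1, a co-receptor, was called lower in bulls, and none of the 4 tested was called higher (limma; 0 higher at an unadjusted p below 0.05). Over all genes tested, 9.61% were called lower and 35.7% higher. GAS1 was at 25.5, 14.3 and 2.87 in calves 1, 2 and 3 and at 1.61, 1.81 and 1.91 in the bulls, with a log2 fold difference of −2.07 (adjusted p = 0.0452, limma) and −2.86 (adjusted p = 0.000116) without calf 3. Its call was lost when any of the other 5 libraries was left out (adjusted p between 0.0986 and 0.126), with no filter (0.0684) and with the replicate number as a block (0.0553). CDON, another co-receptor, named after its values were seen, was not called with all libraries (−1.22, adjusted p = 0.0697) and was called lower without calf 3 (−1.77, adjusted p = 0.00012).

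Genes that act near SMO and at the cilium went both ways, with 5 called higher and 3 lower of 18. These shares were 27.8% and 16.7%, against 35.7% and 9.61% of all genes tested. GPR161, a ciliary receptor that holds the pathway back, rose: the calves averaged 5.70 ± 0.403 (SD, n = 3) and the bulls 67.6 ± 10.3 (SD, n = 3), a log2 fold difference of 3.35 (adjusted p = 2.38e-05, limma) and 3.39 without calf 3. ARRB1, an arrestin, was called lower (−2.60, adjusted p = 0.0165), at 9.76, 7.50 and 46.7 in calves 1, 2 and 3, against 1.70 ± 0.179 (SD, n = 3) for the bulls. Its log2 fold difference was −1.83 (adjusted p = 0.000139) without calf 3, and its call was lost without bull 1 (adjusted p = 0.0588), bull 2 (0.0603) or bull 3 (0.0551) and after rescaling to the same total (0.0566).

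Of 27 kinases, ligases and cofactors of the GLI proteins, 10 were called higher and 3 lower. These shares of 37% and 11.1% lay near the 35.7% and 9.61% of all genes tested. STK36, a kinase of the Fused family, rose from 2.16 ± 0.944 (SD, n = 3) to 16.3 ± 0.818 (SD, n = 3), with a log2 fold difference of 2.50 (adjusted p = 0.000451, limma) and 2.24 without calf 3. The ubiquitin ligase scaffolds CUL1 and CUL3 rose by log2 fold differences of 2.69 (adjusted p = 5.13e-05) and 2.25 (adjusted p = 0.000405), and 2.66 and 2.03 without calf 3. CSNK1E and PRKACB, a casein kinase and a catalytic subunit of protein kinase A, fell, with log2 fold differences of −2.05 (adjusted p = 0.000123) and −2.12 (adjusted p = 0.00417), which were −2.0 and −1.76 without calf 3. These 5 genes, which also serve other pathways, kept their call under each of the 16 alternatives.

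Of 12 tested genes known as targets in other tissues, 4 were called lower (CCND2, MYCN, BCL2 and SFRP1) and FOXM1 was called higher. These shares were 33.3% and 8.33%, against 9.61% and 35.7% of all genes tested. SFRP1 lost its call without calf 3 (−1.27, adjusted p = 0.0213 with it, limma; −0.96 without it). In that fit 6 of the 12 were called lower, 3 of them in both fits, and 2 were called higher (FOXM1 and GREM1). Over all genes tested, 13.6% were called lower and 37.9% higher in it. MYCN was at 10.9, 16.1 and 1.94 in calves 1, 2 and 3 and at 0.889, 0.949 and 0.964 in the bulls (log2 fold difference −2.12, adjusted p = 0.0335, limma), and −2.89 (adjusted p = 3.72e-05) without calf 3. Its call was lost when any of the other 5 libraries was left out, with adjusted p up to 0.0996 without bull 1, and with no filter (0.0529). CCND2, a cyclin of the G1 phase, fell from 30.2 ± 4.82 (SD, n = 3) to 7.02 ± 3.1 (SD, n = 3), with a log2 fold difference of −2.04 (adjusted p = 0.00323), and −1.99 without calf 3. FOXM1, a factor of dividing cells, rose from 0.590 ± 0.468 (SD, n = 3) to 11.7 ± 2.79 (SD, n = 3), with a log2 fold difference of 3.02 (adjusted p = 0.000377), and 2.75 without calf 3. Of the 7 tested genes of ligand processing and release, HHATL alone was called with all libraries (2.79, adjusted p = 0.00192, limma). Without calf 3, where HHATL had 2.97, 3 of the 7 were called higher, against 37.9% of all genes tested. MYCN reached an FPKM of 1 only in the calves and FOXM1 and HHATL only in the bulls, so these 3 genes passed the filter through 1 group.

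For each tested core gene, the genes with the most similar profile over the 6 libraries were sought among the 13393 tested genes with a symbol. Similarity was the Euclidean distance of centred log2(FPKM + 1) values. Nearest to DHH were REM1, TGIF1 and LPAR3, at distances of 0.276 to 0.355, and TGIF1 was at 28.5 and 32.3 in calf 1 and calf 2, 1.73 in calf 3 and 6.82 to 8.67 in the bulls. PTCH1 lay nearest to PSAT1 (0.213), GPR153 and ADCY9, and SMO nearest to CST3 (0.229), PPIC and HIST1H1E. GLI3 lay nearest to STC1 (0.150), MUTYH and COMMD2. For HHIP, SEMA4D (0.277), ARRB1 and VCAN came nearest, all of them highest in calf 3, and SUFU lay nearest to AP5M1 (0.112), YLPM1 and SLC25A13. None of the 6 tested core genes was among the 3 nearest of another. GLI1 and GLI2 had not passed the filter and so could not be found by this search.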

How the data were processed

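Testis RNA of 3 calves and 3 bulls was depleted of ribosomal RNA and sequenced as strand-specific libraries. The authors mapped reads with TopHat2 and assembled transcripts with StringTie, and deposited FPKM values per library for genes and 108527 transcripts; which tool made them is not given in the sources used here. The paper names UMD 3.1.1, but all 8 genes overlapped the locus of the same symbol on ARS-UCD2.0 in RefSeq, so positions are printed as deposited, without a stated build. No counts were given. Values were transformed to log2(FPKM + 1) and tested with limma 3.58.1 in R 4.3.3 (trend, two-sided, Benjamini-Hochberg over all features tested), a procedure tested on simulated data. Files were read by data.table (version 1.17.8). Plots came from matplotlib 3.10.9 under Python 3.11.15. Libraries are separate animals, and groups follow the sample titles. The genes, lists and tests were chosen with earlier results of these data known. Named were all 8 genes, the up to 6 called pathway genes with the largest log2 fold difference each way, the 3 nearest profiles and the transcripts that passed the filter. Other genes were named after their values were seen. Alternatives (effects in the closing section) covered pseudocounts of 0.1 and 0.5, filters, scaling, trend, array weights, a replicate block and each library left out. A planned search for a GLI motif in promoters was not run, since no promoter sequence was used here.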

Additional observations from a re-analysis of the deposited data

How the results depend on the processing

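Leaving out 1 library at a time gave 1 to 5 core genes and 1 to 6 of their transcripts called lower in bulls, 0 of either called higher, and 7 to 15 other pathway genes called lower and 14 to 20 higher. Over all genes it gave 1218 to 2466 lower and 6034 to 6859 higher. The lowest counts of core genes came without bull 1 or bull 3 (1 gene each, PTCH1), then without calf 2 or bull 2 (2 each). The count of transcripts was 6 without calf 3, 6 with array weights, 5 after quantile normalization and 1 without bull 1, bull 2 or bull 3. Quantile normalization gave 3827 genes higher and 4538 lower, and 10 and 24 of the other pathway genes, and rescaling all libraries to the same total gave 1151 genes lower. With no filter and without calf 3 together, chosen after seeing the data, 2726 genes and 5 transcripts were called lower. Leaving out 1 library moved the log2 fold difference of DHH between −1.84 and 0.010 (reversed without calf 2) and that of SUFU between −0.55 and 0.12. SUFU was also reversed with array weights (0.095) and without both calf 3 and the filter (0.12). DHH relative to the Sertoli cell markers stayed below 0 in all 9 alternatives, from −0.79 to −0.28. The cause of these changes was not tested.

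Calves and bulls share replicate numbers but are different animals. Deviations of same-numbered samples from their group means correlated by 0.028, 0.025 and 0.034 over 18115 genes, so the numbers do not pair the samples. With the replicate block, 4 core genes were called lower, with 6437 genes higher and 1691 lower over all genes. GAS1 (adjusted p = 0.0553, limma) and the transcript SMO-201 (adjusted p = 0.0505) lost their call and the transcript HHIP-OT1 gained one (adjusted p = 0.0467), and no other gene or transcript named by rule changed.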

Other observations

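In the library labelled calf 3, some low pathway genes that were not tested lay far above the other libraries. SPP1 was at 111 in calf 3 and at most 0.680 elsewhere, NKX2-2 at 6.91 against 0.667 and 0.719 in calf 1 and calf 2 and 0 in the bulls, and FOXF2 at 3.32 against at most 0.375. These genes were named after their values were seen. Of the 80 other pathway genes, 27 were highest and 19 lowest in calf 3, where 21.9% of all genes tested were highest and 35.3% lowest. The 80 include 12 genes that were not tested, among them those just named, so the sets compared are unlike.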
